A study of Homo sapiens with 12 samples.

Results

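The nuclear genes for the machinery of oxidative phosphorylation were followed in RKO, a human colorectal adenocarcinoma cell line, after treatment with thymoquinone (TQ), a quinone from black cumin seed, with the antimetabolite 5-fluorouracil (5-FU), or with both. A gene was taken as a member when its symbol begins with NDUF, SDH, UQCR, COX and a number, or ATP5, and when a probe set is annotated to that gene alone. Of 11963 genes readable in this way, 79 are members: 34 named for complex I, 5 for complex II, 6 for complex III, 17 for complex IV and 17 for complex V. Where a gene had several probe sets, the brightest on average over the 12 arrays was taken. Roles were assigned for this report, with a broad accessory class that also holds SDHD, ATP5F1D, UQCRC1 and UQCRC2. By role, 12 encode core subunits, 50 accessory subunits, 12 assembly factors, 2 tissue isoforms and 1 a regulator, ATP5IF1, the inhibitor of ATP synthase. Of the remaining 2, NDUFB2-AS1 is an antisense RNA and ATP5MC2P1 a pseudogene; the rule takes them in by symbol. The core subunits encoded in mitochondrial DNA are not members, and symbols found only in probe sets shared between genes, such as NDUFS5, UQCRH and COX17, were not analysed here.

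The respiratory chain passes electrons from NADH (complex I) and succinate (complex II) through coenzyme Q to complex III, and from there by cytochrome c to complex IV, which reduces oxygen. Complexes I, III and IV pump protons as they do so, and complex V, the ATP synthase, uses the resulting gradient to make ATP. Most subunits are encoded in the nucleus, and their promoters are known for sites of the factors NRF1, GABPA and YY1. Colorectal tumour cells draw on both glycolysis and this chain for energy.

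The data are 12 arrays in 4 groups of 3: control cells, called untreated in the labels and given DMSO in the study's methods; TQ at 20 µM; 5-FU at 10 µg/mL (76.8 µM); and TQ+5-FU, with both drugs at these concentrations at the same time. All cells had been plated 48 h earlier and were treated for 24 h. The groups rest on 1 established line. The study's methods speak of independent biological replicates in general, without tying single arrays to cultures, and the p-values measure array-to-array spread. Values are RMA log2 signals, so a difference of 1 is a 2-fold change. The words rose and fell are kept for limma's adjusted p under 0.05. Signals of different genes come from different probes and are not compared with each other. Fewer mitochondria or cells and less RNA of a gene per cell cannot be told apart in such bulk RNA.

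The epithelial genes KRT18 and EPCAM gave signals of 11.91 to 12.82 and 8.37 to 9.61, whereas CDH1 and KRT19 stayed between 3.30 and 4.07 on every array. KRT8 lay between 6.25 and 7.77. Of the 5 epithelial markers, KRT18 rose with 5-FU (over 10 arrays EPCAM did too), with 11.997 to 12.16 in control cells and 12.44 to 12.82 after 5-FU. Over 10 arrays 1 of the 5 also rose with TQ and 1 with TQ+5-FU. Of 5 colon epithelium genes, CDX1 and CDX2 lay between 6.29 and 7.72, and VIL1, LGALS4 and GPA33 between 3.47 and 6.15. Against control 0 of these 5 passed over 12 arrays, and over 10 arrays 1 fell with TQ and 1 with 5-FU. Markers of other cell types were mostly low but not uniformly so. Of 4 leukocyte genes PTPRC and LYZ stayed at or below 4.24 while CD14 and CD3E reached 5.87 and 6.77. Of 5 fibroblast genes LUM stayed at or below 2.69, but COL1A1 lay between 7.796 and 8.862 on all arrays, and of 4 muscle genes CKM reached 4.74 and ACTN2 6.15. These are signals of different probes, and none of these 13 genes passed against control over 12 arrays. Over 10 arrays ACTN2 fell with TQ+5-FU (-0.47, adjusted p = 0.0303). A pair of arrays was treated as displaced. For 5-FU replicate 3 the mean r with its own replicates was 0.911, beside 0.952 and 0.957 for replicates 1 and 2. TQ+5-FU replicate 2 stood apart less clearly, at 0.978 beside 0.984 and 0.990, and its nearest array was its own replicate 3. On it 5.36% of all genes lay more than 1 below control, beside 0.301% and 0.134% on TQ+5-FU replicates 1 and 3. Results are therefore given with all 12 arrays and with the 10 arrays that remain without this pair.

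Promoter windows are shown for 4 members: the pair that passed the test below, and COX6A1 and COX5B, 2 of the 10 nuclear complex IV subunits. All 10 had signals above the controls on every 5-FU array, so this does not set the pair apart. Each line gives the 250 bases before the annotated start in RefSeq (GRCh38.p14), 5′ to 3′. Capitals mark the letters GCGCATGC (an NRF1-type core), CGGAAG (an ETS-type core, the kind GABPA binds), AAGATGGC (a YY1-type core) or GCGCAGGC, read on both strands.
NDUFAF4, chr6:96897892-96898141, minus strand: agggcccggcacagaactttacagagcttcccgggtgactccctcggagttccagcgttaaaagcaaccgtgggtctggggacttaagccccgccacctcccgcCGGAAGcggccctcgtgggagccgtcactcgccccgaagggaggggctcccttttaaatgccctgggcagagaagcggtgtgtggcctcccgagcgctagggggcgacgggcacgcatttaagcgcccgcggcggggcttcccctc
SDHA, chr5:218070-218319, plus strand: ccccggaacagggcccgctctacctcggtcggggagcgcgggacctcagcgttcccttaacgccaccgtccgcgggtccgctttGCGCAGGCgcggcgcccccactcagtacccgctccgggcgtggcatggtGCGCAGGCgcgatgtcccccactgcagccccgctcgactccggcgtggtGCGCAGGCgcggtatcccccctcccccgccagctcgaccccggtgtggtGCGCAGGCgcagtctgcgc
COX6A1, chr12:120437863-120438112, plus strand: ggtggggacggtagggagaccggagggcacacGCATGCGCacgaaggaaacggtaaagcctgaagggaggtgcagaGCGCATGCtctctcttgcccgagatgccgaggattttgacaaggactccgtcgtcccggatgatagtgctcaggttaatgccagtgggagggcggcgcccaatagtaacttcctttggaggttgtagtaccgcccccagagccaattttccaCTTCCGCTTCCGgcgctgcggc
COX5B, chr2:97645812-97646061, plus strand: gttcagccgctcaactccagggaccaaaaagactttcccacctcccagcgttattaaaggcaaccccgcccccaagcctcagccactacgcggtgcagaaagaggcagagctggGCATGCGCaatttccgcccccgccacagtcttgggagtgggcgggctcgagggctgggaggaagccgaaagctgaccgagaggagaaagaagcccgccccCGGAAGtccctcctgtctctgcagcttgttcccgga

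COX6A1 and COX5B hold the NRF1-type letters, at 2 places and 1 place, and each also holds the ETS-type letters. NDUFAF4 shows the ETS-type letters in this window, and its NRF1-type letters lie in the 50 bases after the start. The SDHA window has none of the NRF1-type, ETS-type or YY1-type letters, but the string GCGCAGGC occurs in it 4 times; this string was looked for after the window had been seen. Of the 79 members, 69 had a window in the RefSeq table, which runs from 250 bases before to 50 after the start, 1 per gene. GCGCATGC stood in 14 of the 69 (20.3%), against 3.27% of all 27305 windows and 4.44% of the 9562 that belong to genes read on the arrays. CGGAAG stood in 31 (44.9%, against 19.9% and 27.7%) and AAGATGGC in 11 (15.9%, against 3.03% and 4.76%). GCGCAGGC was found in 11 members (15.9%, against 6.38% and 9.38%), whereas the GC box letters GGGCGG were no more frequent among members (60.9%) than among genes read on the arrays (63.1%). GCGCATGC was found in 2 of the 9 windows of nuclear complex IV subunits, which are the COX6A1 and COX5B windows printed here. CGGAAG was found in 5 of the 9 windows of nuclear complex IV subunits and in 10 of 33 for complex I. These are matches of letters in a window, not measured binding.

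Few members passed the test, and most moved little. With TQ, 0 of 79 members passed against control over all 12 arrays, where 0.267% of all genes passed. With 5-FU the count was 0 higher, where 4.32% of genes passed, and 1 lower, where 2.97% passed. With TQ+5-FU, 0 members passed, against 2.63% of genes. At an unadjusted p under 0.05, limma gave 0 higher and 1 lower member for TQ (1.27%, against 9.67% of all genes). The counts were 9 higher and 3 lower for 5-FU (15.2%, against 19.6%), and 3 higher and 0 lower for the combination (3.8%, against 11.2%). The methods' Tukey test called 1, 6 and 3 members and the methods' t-test after adjustment 10, 0 and 1. The difference lay within 0.25 of 0 on the log2 scale for 84.8% of members with TQ (63.4% of all genes), 58.2% with 5-FU (49.3%) and 92.4% with TQ+5-FU (70.4%). Members have high signals, 44 of them with a mean of 12 or more. No such share is given for genes of like signal, so these values do not show that the members are more stable.

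The median difference of the members from control was -0.08 with TQ, 0.11 with 5-FU and 0.09 with TQ+5-FU, beside -0.09, 0.09 and 0.01 over all genes. Over 10 arrays the members' medians were 0.09 with 5-FU and 0.04 with TQ+5-FU, beside -0.01 and -0.03 over all genes. By complex, the medians with 5-FU were 0.15 for complex I, 0.00 for complex II, 0.17 for complex III, 0.15 for complex IV and 0.01 for complex V. Over 10 arrays they were 0.10, 0.06, 0.12, 0.08 and 0.07. After quantile normalization the 5-FU medians of complexes II and V turned to -0.02 and 0.00. With TQ the medians ran from -0.23 for complex II to -0.03 for complex V, and those of all 5 complexes stayed below 0 under median centring and quantile normalization. With TQ+5-FU they ran from -0.03 for complex II to 0.13 for complex I, and over 10 arrays from -0.07 for complex II to 0.07 for complex I. Accessory subunits and assembly factors differed in sign with 5-FU: the medians were 0.17 for the 50 accessory subunits and -0.15 for the 12 assembly factors, with these signs also under both other scalings; the difference was not tested.

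**Figure D1:**
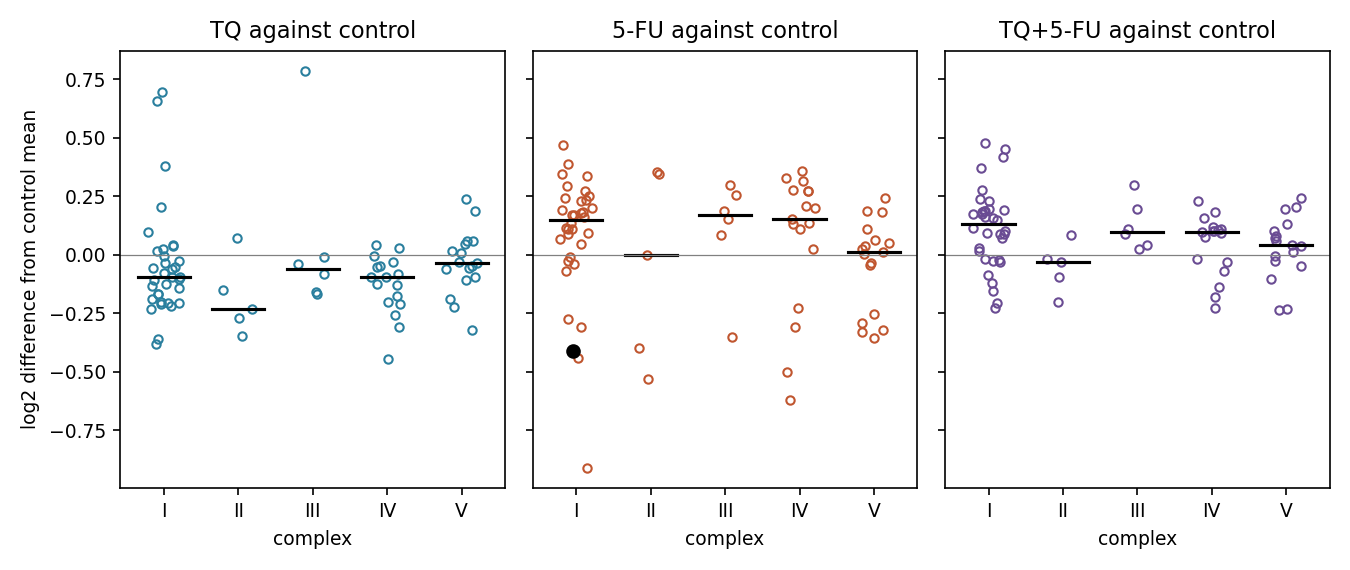
Log2 difference of each of the 79 members from the control mean, by complex, in fits of all 12 arrays; open circles did not pass the adjusted threshold, the filled circle (NDUFAF4 with 5-FU) did, and lines are medians. Most members lie close to 0, and with 5-FU a few lie far below the others.

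NDUFAF4, an assembly factor of complex I (chr6:96889315-96897891, GRCh38.p14), was the member that fell with 5-FU. Its signals were 11.23, 11.21 and 11.23 in control cells, 11.28, 11.25 and 11.24 with TQ, 10.84, 10.94 and 10.64 with 5-FU, and 11.40, 11.48 and 11.34 on the TQ+5-FU arrays. All 5-FU arrays lay below every other array and all TQ+5-FU arrays above every other array. It fell by 0.41 with 5-FU (SE 0.103, limma adjusted p = 0.0381), and it was 0.60 higher with TQ+5-FU than with 5-FU alone (SE 0.103, adjusted p = 0.0277). With TQ alone the difference from control was 0.04 (95% interval -0.19 to 0.26, adjusted p = 0.92). The interaction, which is TQ+5-FU minus TQ minus 5-FU plus control, was 0.57 (SE 0.145, adjusted p = 0.259), and over 10 arrays it passed at 0.44 (adjusted p = 0.0263).

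SDHA, the flavoprotein of complex II that oxidises succinate (chr5:218320-268746, GRCh38.p14), separated the drugs in direction. Its signals were 10.61, 10.56 and 10.61 in control cells, 10.19, 10.32 and 10.22 with TQ, 10.96, 11.01 and 10.85 with 5-FU, and 10.34, 10.35 and 10.48 on the TQ+5-FU arrays. Every 5-FU array lay above all controls, and every array with TQ, with or without 5-FU, lay below them. Adding TQ to 5-FU gave a lower signal, by -0.55 (SE 0.0957, adjusted p = 0.0316). Against control, TQ gave a difference of -0.35 (adjusted p = 0.201). For 5-FU it was 0.35 (adjusted p = 0.0608), and for TQ+5-FU -0.20 (adjusted p = 0.492). Over 10 arrays the first of these passed at -0.35 (adjusted p = 0.005) and the second at 0.39 (adjusted p = 0.00447). The probe set of SDHA is of the platform's _x_ type, whose probes can match more than 1 transcript, and another probe set is annotated to the pseudogenes SDHAP1 and SDHAP2 together, so the share of SDHA in this signal is uncertain.

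**Figure D2:**
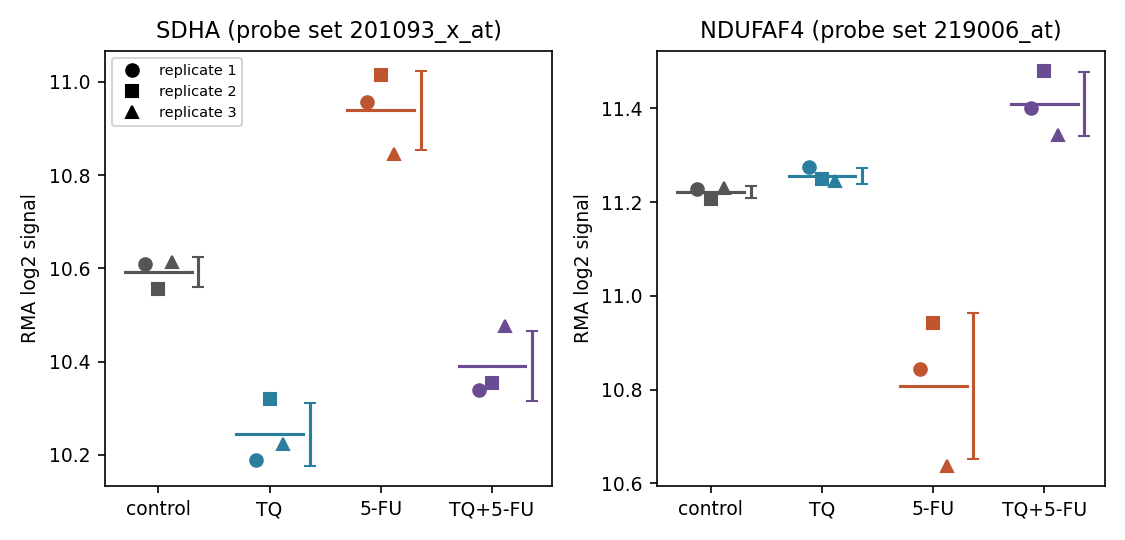
RMA log2 signals of SDHA and NDUFAF4 on each array; symbols are replicates, horizontal lines group means and the bars beside them 1 SD (n = 3). SDHA is above control with 5-FU and below it on all 6 arrays with TQ; NDUFAF4 is lowest with 5-FU and highest with TQ+5-FU.

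NDUFAF4 and SDHA were the whole of the difference between TQ+5-FU and 5-FU that passed: 1 member higher, where 0.435% of genes passed, and 1 lower, where 0.368% passed. Over 10 arrays the same pair passed, where 6.91% of genes did. Between TQ+5-FU and TQ, 0 members passed over 12 arrays (1.15% of genes). At an unadjusted p under 0.05, 6 were higher (7.59%, against 12.7% of genes in either direction). The methods' Tukey test called 3, with no share of all genes given. In the interaction 0 members passed (0.167% of genes), with 2 higher at an unadjusted p under 0.05 (2.53%, against 6.3%). Leaving out any of 11 arrays in turn ended the call of SDHA against 5-FU (adjusted p up to 0.142), and only without 5-FU replicate 3 did it remain. The call of NDUFAF4 in the same comparison was lost in 10 of 12 such fits (adjusted p up to 0.121), and its fall with 5-FU in 9 of 12 (adjusted p up to 0.145). With the replicate number as a block, 0 members passed in all 6 comparisons.

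Outside the threshold, the subunits of complex IV were higher together with 5-FU. With 5-FU, all 3 arrays lay above all 3 controls for 31 of the 79 members (39.2%), where 14.2% of all genes did so, and below them for 6 members, where 11.4% of genes did so. These 31 are the 10 accessory (nuclear) subunits of complex IV read here, 13 members of complex I, 1 of complex II, 3 of complex III and 4 of complex V. For complex IV the count was 10 also with arrays centred on their medians and with 5-FU replicates 1 and 2 alone, and 9 after quantile normalization. Signals of the members are high: 44 have a mean of 12 or more. Among the 438 genes with such signals, 26.3% lay above all controls with 5-FU, and among these 44 members, 63.6%. With TQ+5-FU, 27 members (34.2%) lay above all controls, against 13.6% of genes, and 3 below, against 11.1%. With TQ the counts were 8 above (17.5% of genes) and 19 below (28.9% of genes), so the members' shares lay below those of all genes. After median centring 43.0% of members, against 35.9% of genes, lay below control with TQ, and among genes of high signal 43.2% of members against 49.1% of genes. TQ+5-FU lay above TQ on all arrays for 35 members (44.3%), against 20.8% of genes.

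**Figure D3:**
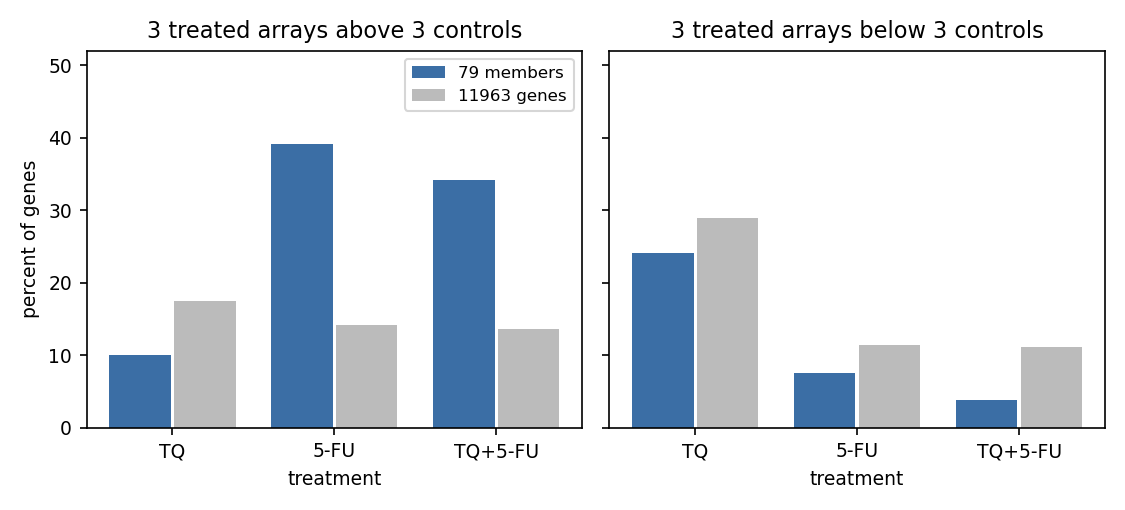
Percent of the 79 members (blue) and of all 11963 genes (grey) whose 3 treated arrays all lie above (left) or all below (right) the 3 controls. The share of members above control is 39.2% with 5-FU and 34.2% with TQ+5-FU, against 14.2% and 13.6% of genes.

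COX6A1, which with the other small nuclear subunits surrounds the catalytic core of cytochrome c oxidase, is 1 example. Its signals were 13.13, 13.12 and 13.19 in control cells, 13.19, 13.04 and 13.05 with TQ, 13.43, 13.44 and 13.64 with 5-FU, and 13.33, 13.47 and 13.33 on the TQ+5-FU arrays. The 5-FU and TQ+5-FU arrays did not overlap the controls, whereas the TQ arrays did. The difference with 5-FU was 0.36 (SE 0.103, adjusted p = 0.0715), and over 10 arrays it passed at 0.29 (adjusted p = 0.0198). COX7A2 gave 12.67, 12.73 and 12.72 in control cells and 12.99, 12.96 and 13.12 with 5-FU, and COX8A 12.99 to 13.03 against 13.26, 13.27 and 13.49. They too passed over 10 arrays only, at 0.27 (adjusted p = 0.0238) and 0.25 (adjusted p = 0.0392). For COX4I1, COX5A and COX5B, also nuclear subunits of this enzyme, the differences with 5-FU were 0.15, 0.13 and 0.28 (adjusted p = 0.438, 0.472 and 0.402). The median over the 10 subunits was 0.12, 0.16 and 0.39 on the 5-FU arrays 1 to 3, where the median over all genes was 0.00, -0.01 and 0.37. The value on replicate 3 is thus close to that of all genes on that array. It was 0.025, -0.09 and -0.11 on the TQ arrays.

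**Figure D4:**
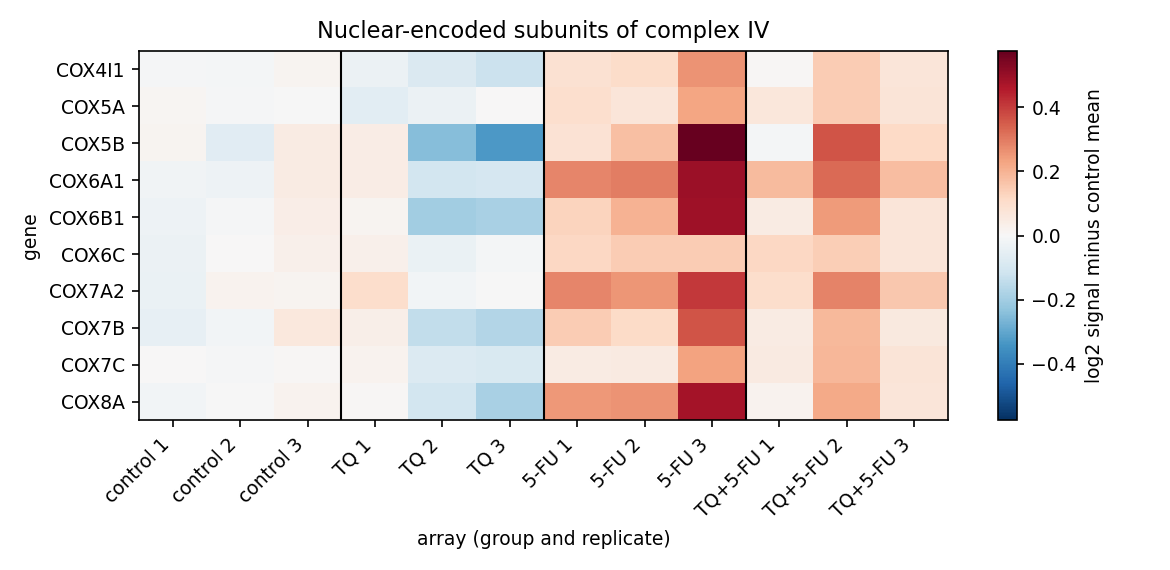
Log2 signal minus the control mean for the 10 nuclear subunits of complex IV (rows) on the 12 arrays (columns), with red above and blue below control. All 10 rows are red on each 5-FU array, and the median is highest on replicate 3.

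The heart and muscle isoforms of the same complex, COX6A2 and COX7A1, gave low signals throughout. COX6A2 lay between 4.81 and 6.17 and COX7A1 between 4.08 and 5.29, both highest on 5-FU replicate 3. The difference of COX7A1 with TQ was -0.31 (adjusted p = 0.733), and it passed over 10 arrays (adjusted p = 0.0333).

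Several subunits differed sharply between the 5-FU arrays. NDUFS1, the large iron-sulphur subunit of complex I, had signals of 9.24, 9.04 and 8.99 in control cells, 9.65, 9.78 and 9.81 with TQ, 9.89, 9.77 and 6.29 with 5-FU, and 9.85, 8.71 and 9.55 on the TQ+5-FU arrays. The third 5-FU array is thus the lowest of all, while the other two 5-FU arrays are above every control. Over 12 arrays its difference with 5-FU was -0.44 (SE 0.771, adjusted p = 0.762), and over 10 arrays it was 0.74 (adjusted p = 0.000693). UQCRC2, a core-protein subunit of complex III, followed the same course, with 10.31, 10.25 and 7.45 on the 5-FU arrays against 9.58 to 9.80 in control cells. On 5-FU replicate 3, 10 members lay more than 1 below their control mean: NDUFS1, NDUFA5, UQCRC2, SDHD, ATP5F1A, ATP5PB, COX15, ATP5F1C, NDUFAF7 and NDUFV2. They ranged from -2.80 (NDUFS1) to -1.03 (NDUFV2), and 8 of the 10 were above control on both other 5-FU arrays. No member lay so low on any other array. Of all genes, 18.2% were more than 1 below control on that array. The signal of GAPDH probes at the 3′ end exceeded that at the 5′ end by 0.063 there, and by 0.046 to 0.131 over the other arrays. The same difference for ACTB was 0.557 there, 0.577 to 0.601 on the control arrays and 0.573 to 0.669 with TQ. It was 0.729 and 0.624 on 5-FU replicates 1 and 2, and 0.67 to 0.957 on the TQ+5-FU arrays. Both of these 5-FU arrays and all TQ+5-FU arrays lay above every control. The part of RNA quality in these values was not tested.

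**Figure D5:**
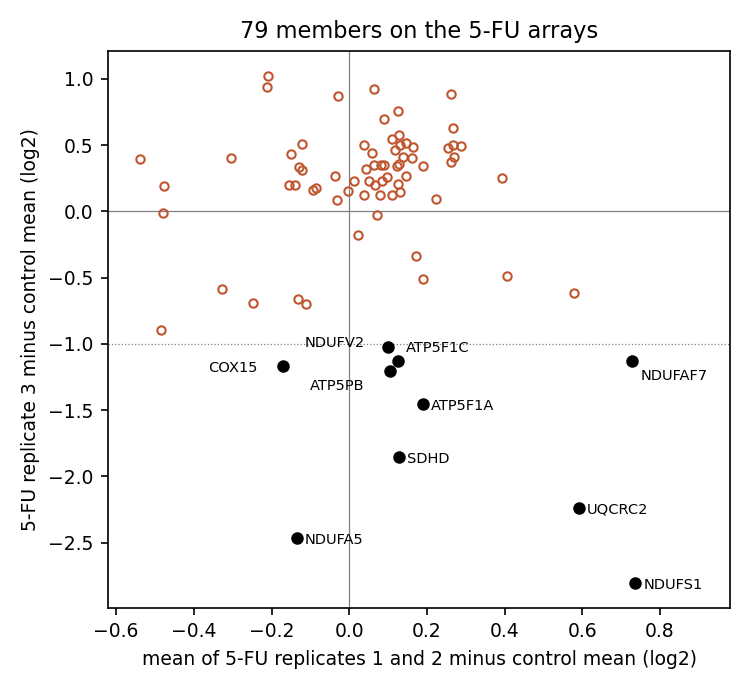
The 79 members on 5-FU replicate 3 (vertical axis) against the mean of 5-FU replicates 1 and 2 (horizontal axis), both as log2 difference from the control mean; filled points are the 10 members more than 1 below control on replicate 3. Most of these are at or above control on the other replicates.

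Without both displaced arrays, 11 members passed with TQ, 17 with 5-FU and 9 with TQ+5-FU, in fits where far more genes passed as well. With TQ, 4 rose (15.1% of genes) and 7 fell (17.3%). With 5-FU, 11 rose (14.9%) and 6 fell (13.4%). With TQ+5-FU, 5 rose (12.7%) and 4 fell (10.0%). The shares of members are close to or below those of all genes. NDUFS1, UQCRC2 and the complex I assembly factors NDUFAF1 and NDUFAF7 rose under all 3 treatments. Their differences with TQ, 5-FU and TQ+5-FU were 0.66, 0.74 and 0.61 for NDUFS1, 0.79, 0.59 and 0.52 for UQCRC2, 0.38, 0.58 and 0.56 for NDUFAF1, and 0.70, 0.73 and 0.71 for NDUFAF7. The 3 comparisons share their control arrays. In these fits the response of NDUFS1, UQCRC2 and NDUFAF7 to both drugs was smaller than the sum of the responses to each. The interaction passed at -0.79 (adjusted p = 0.0155), -0.85 (adjusted p = 0.00997) and -0.72 (adjusted p = 0.0437). On 5-FU replicate 3, which is left out here, these genes lay at -2.80, -2.24 and -1.13 from control. On TQ+5-FU replicate 2, also left out, NDUFS1, UQCRC2 and NDUFAF7 lay at -0.38, -0.16 and 0.01. NDUFAF1 lay at -0.61 and 0.24 on this pair of arrays. The signals of NDUFAF7 are low, from 3.88 to 5.99 over the 12 arrays. With all arrays kept, 0 members passed in the interaction, and the lowest value of any member was -0.33. NDUFS1 then differed by 0.66 with TQ, -0.44 with 5-FU and 0.28 with TQ+5-FU. Its response to both drugs was thus not smaller than the sum in that fit.

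ATP5MC1, 1 of the genes for the rotating c-ring of ATP synthase, COX10, needed for the haem of complex IV, and NDUFAF3, an assembly factor of complex I, fell under all 3 treatments in these fits. The differences with TQ, 5-FU and TQ+5-FU were -0.32, -0.48 and -0.39 for ATP5MC1, -0.45, -0.54 and -0.40 for COX10, and -0.36, -0.31 and -0.38 for NDUFAF3. The arrays left out did not show these falls. On 5-FU replicate 3 ATP5MC1, COX10 and NDUFAF3 lay at -0.01, 0.40 and 0.40 from control, and on TQ+5-FU replicate 2 at 0.07, 0.12 and 0.14. None of them passed against control over 12 arrays. In the interaction 5 members passed, where 11.1% of genes did: COX10 (0.58, adjusted p = 0.0229) and NDUFAF4 were the higher ones. ATP5F1D, the delta subunit of the F1 part, fell with 5-FU (-0.48, adjusted p = 0.0108) and TQ+5-FU (-0.37, adjusted p = 0.0427), and COX20, an assembly factor of complex IV, fell with 5-FU (-0.48, adjusted p = 0.0359). On the arrays left out, 5-FU replicate 3 and TQ+5-FU replicate 2, ATP5F1D lay at 0.19 and 0.05 from control. COX20 lay at -0.90 on 5-FU replicate 3. NDUFA9, an accessory subunit of complex I, rose with 5-FU (0.41, adjusted p = 0.00246) and with TQ+5-FU (0.41, adjusted p = 0.00372). On the arrays left out it lay at -0.48 (5-FU replicate 3) and 0.44 (TQ+5-FU replicate 2) from control. It was also the member that passed between TQ+5-FU and TQ (0.31, adjusted p = 0.0254), where 12.7% of genes did. NDUFA6 and UQCR10 rose with 5-FU alone, by 0.27 and 0.26, and COX11, a copper factor for complex IV, fell with TQ by 0.20. Another probe set of NDUFA6 gave -0.07 with 5-FU, and the other probe sets of COX11 gave 0.07 and -0.19 with TQ. None of these passed. NDUFB2-AS1 fell with TQ (-0.38, adjusted p = 0.00409); it is antisense to a member, and probes of a gene and its antisense partner may not be separable here.

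The remaining lead subunits did not pass in any comparison with control, over 12 or over 10 arrays. For NDUFV1, which binds NADH, the difference was -0.21 after TQ, 0.19 after 5-FU and -0.02 after the combination. For UQCRC1, a core-protein subunit of complex III, these values were -0.16, 0.26 and 0.02. ATP5F1B, the catalytic beta subunit of ATP synthase, lay between 12.84 and 13.08 on all 12 arrays, with differences of -0.06, 0.04 and 0.04 and an SE of 0.091. ATP5F1A, its alpha partner, lay between 12.65 and 13.20 on 11 arrays and at 11.44 on 5-FU replicate 3. For 24 members a further probe set was annotated, 37 in all; none of the 37 passed over 12 arrays in any comparison, and 5, 4 and 4 passed over 10 arrays with TQ, 5-FU and TQ+5-FU. With TQ 5 of the 37 had the opposite sign from the probe set read, with 5-FU 4 and with TQ+5-FU 7.

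Around the chain, genes of regulators, quinone enzymes and the citric acid cycle passed the test. NRF1, the factor whose letters stand in the windows above, had signals of 7.98, 7.84 and 8.09 in control cells and 7.11, 7.23 and 7.19 with 5-FU, with no overlap. It fell by 0.79 with 5-FU (SE 0.12, adjusted p = 0.00314). PPRC1, a coactivator of the same factor, fell with 5-FU by 0.74 (adjusted p = 0.0333). These were 2 of 15 measured regulators of mitochondrial biogenesis (0 rose); with TQ and with TQ+5-FU none passed, at 1 higher and 1 lower, and 1 higher and 2 lower, by unadjusted p under 0.05. Over 10 arrays 4 rose and 2 fell with TQ, 1 rose and 5 fell with 5-FU, and 1 rose and 3 fell with TQ+5-FU. GABPA, a subunit of the ETS-type factor, was among those that rose with TQ (1.48, adjusted p = 0.00205) and rose with TQ+5-FU (1.13, adjusted p = 0.0176), and NRF1 fell under all 3 treatments.

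Among 15 genes for coenzyme Q synthesis and quinone-linked enzymes, 3 rose and 1 fell with 5-FU (4.32% and 2.97% of all genes). With TQ+5-FU 3 rose and with TQ 1 rose (2.63% and 0.267% of all genes passed in either direction). NQO1, a quinone reductase, had signals of 11.45, 11.36 and 11.48 in control cells, 11.995, 12.12 and 12.07 with TQ, 12.24, 12.20 and 12.26 with 5-FU, and 12.28, 12.42 and 12.34 on the TQ+5-FU arrays. No treated array overlapped the controls. The rise was 0.64 after TQ (adjusted p = 0.027). It was 0.81 after 5-FU (adjusted p = 0.000693), and the combination gave 0.92 (adjusted p = 0.000712). SQOR, which passes electrons from sulphide to coenzyme Q, and COQ6, a coenzyme Q hydroxylase, rose with 5-FU by 0.91 and 0.97 and with TQ+5-FU by 1.10 and 0.65. DHODH, the pyrimidine enzyme that reduces coenzyme Q, fell with 5-FU by 0.88 (adjusted p = 0.0233). Over 10 arrays 3 of the 15 rose and 5 fell with TQ, 4 rose and 4 fell with 5-FU, and 4 rose and 2 fell with TQ+5-FU.

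Of 20 genes of the citric acid cycle, IDH2 rose with 5-FU by 1.14 (adjusted p = 0.0211) and CS, citrate synthase, fell by 0.38 (adjusted p = 0.0281); none passed with TQ or TQ+5-FU, where 3 and 2 were lower at an unadjusted p under 0.05. Over 10 arrays 5 rose and 4 fell with TQ, 5 rose and 2 fell with 5-FU, and 3 rose and 3 fell with TQ+5-FU, and CS fell under all 3. SLC25A4, the ADP/ATP carrier of the inner membrane, rose with 5-FU by 0.77 (adjusted p = 0.000674), the only 1 of 11 genes for cytochrome c and carriers to do so over 12 arrays. Over 10 arrays ETFA (0.44), ETFDH (0.67) and VDAC3 (0.55) also rose with 5-FU and VDAC1 (-0.30) fell, with 3 higher and 1 lower for TQ and 3 higher for TQ+5-FU. CYC1, the cytochrome of complex III in the same list, differed by 0.33 with 5-FU (adjusted p = 0.287). Of 16 assembly factors outside the symbol rule, TMEM126B fell with 5-FU by 0.54 (adjusted p = 0.0228), as NDUFAF4 did, and SURF1 differed by -0.03 (adjusted p = 0.944). Over 10 arrays 1 rose and 6 fell with 5-FU, 1 rose with TQ, and 0 passed with TQ+5-FU. Among 19 genes for protein import none passed with 5-FU, with 6 lower at an unadjusted p under 0.05; TOMM20 differed by -0.28 (adjusted p = 0.11). Over 10 arrays 8 of the 19, TOMM20 among them, fell with 5-FU and 1 rose. With TQ 3 rose and 3 fell there, and with TQ+5-FU 2 rose and 4 fell. In those fits 12.7% to 15.1% of all genes rose and 10.0% to 17.3% fell.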

How the data were processed

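The authors hybridised cRNA to Affymetrix GeneChip human expression arrays and deposited RMA-normalized log2 signals, 1 column per array. The study's methods name GeneSpring GX 13.0 and the submitters' notes Affymetrix Expression Console; the log2 values were used as deposited. The 62 control probe sets were left out. Groups follow the labels. limma 3.58.1 (R 4.3.3) fitted 1 mean per group over 12 arrays, with Benjamini-Hochberg adjustment over 22215 probe sets. Of these, 19064 name 1 gene, 1043 several and 2108 none. Members, companion lists and the choice of 2 displaced arrays were made with earlier results of these data known. Named genes are members past the threshold, lead subunits and isoforms, and from each companion list its first gene and up to 3 that passed; other genes were chosen after their values were seen. The number of arrays limits the precision. Alternatives were the replicate number as a block, each array left out, other scalings, filters, probe sets, tests and priors. Promoter windows came from RefSeq, the first per gene. Figures were drawn with matplotlib 3.10.9.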

Additional observations from a re-analysis of the deposited data

How the results depend on the processing

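With 12 arrays, 0, 1 and 0 members passed with TQ, 5-FU and TQ+5-FU, 2 between TQ+5-FU and 5-FU, 0 between TQ+5-FU and TQ and 0 in the interaction. Without both displaced arrays the counts were 11, 17, 9, 2, 1 and 5. Leaving out each array in turn gave 0 to 4 with TQ, 0 to 6 with 5-FU, 0 to 2 with TQ+5-FU, 0 to 2 against 5-FU, 0 to 4 against TQ and 0 to 1 in the interaction, and the fit without 5-FU replicate 3 gave each of these maxima. With the replicate block all 6 counts were 0. Whether the shared numbers pair the arrays is not known. A correlation over 0.1 was found in 6 of 18 same-numbered pairs (range -0.836 to 0.859). With 3 arrays a group and displaced arrays of different numbers, these values cannot decide it. For 5-FU, the count was 0 after median centring, with the groups compared only and by the methods' t-test after adjustment, 2 after quantile normalization and without dim probe sets, 7 with trend and robust prior and 6 by the methods' Tukey test. Against 5-FU it was 0 after median centring, with the groups compared only and by the adjusted t-test. The Tukey test gave 1 with TQ, 3 with TQ+5-FU and 3 against TQ. The groups compared only gave 11 with TQ and 1 with TQ+5-FU, and the adjusted t-test 10 and 1. At an unadjusted p under 0.05 the t-test gave 20 with TQ, 17 with 5-FU, 18 with TQ+5-FU and 18 against TQ. No share of all genes is given for the other scalings, filters, priors and tests or for single arrays left out. Those counts therefore do not set the members apart from all genes.

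The counts of members above or below all controls were repeated under settings chosen after the data had been seen. Median centring moved TQ from 8 to 5 above (all genes 17.5% to 16.0%) and from 19 to 34 below (28.9% to 35.9%). Without both displaced arrays the members below control were 16 with 5-FU (20.3%, against 27.0% of genes) and 14 with TQ+5-FU (17.7%, against 26.7%). With median centring as well they were 19 (24.1%, against 28.8%) and 18 (22.8%, against 33.5%). With quantile normalization they were 19 (24.1%, against 27.5%) and 14 (17.7%, against 26.5%). The members above control kept to 26 to 45 with 5-FU and 18 to 30 with TQ+5-FU.

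Differences of lead members that turned sign did not pass in either direction, except NDUFS1 with 5-FU, which was 0.74 without both displaced arrays. Without that pair ATP5F1A was 0.19 with 5-FU and 0.12 with TQ+5-FU, UQCRC1 -0.0246 with TQ+5-FU, COX6A2 -0.21 with 5-FU, and COX7A1 -0.03 with 5-FU and -0.0594 with TQ+5-FU. ATP5F1B was -0.0111 with 5-FU after quantile normalization. Over single arrays left out, the ranges with 5-FU were -1.06 to 0.74 for NDUFS1, -0.65 to 0.19 for ATP5F1A, -0.21 to 0.47 for COX6A2 and -0.03 to 0.47 for COX7A1. With TQ+5-FU they were -0.0666 to 0.0292 for NDUFV1, -0.0246 to 0.0751 for UQCRC1, -0.10 to 0.12 for ATP5F1A, -0.0787 to 0.0192 for COX6A2 and -0.0594 to 0.26 for COX7A1. The cause was not tested.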
